A study of Drosophila melanogaster with 4 samples.

Results

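The genes described here are the odorant-binding proteins (Obp), the odorant, gustatory and ionotropic receptors (Or, Gr and Ir) and the Osiris genes (Osi) of Drosophila melanogaster, measured in whole males after a cold shock. They were chosen by a rule on names, set with earlier results of these data known. Genes were taken from the spots that carried 1 gene symbol. That symbol had to begin with Obp, Or, Gr or Ir, then digits and a letter, or with Osi or Orco. The rule found 39 of the 6793 named genes on the 12k array design, of which 19 were Obp, 15 Osi, 3 Ir, 1 Or and 1 Gr genes. On the 7k design of the pilot it found 23 of 2377 named genes, 20 of them Obp, 2 Osi and 1 Gr, and 21 genes were on both designs. The RefSeq gene table lists 51 Obp, 25 Osi, 60 Or, 60 Gr and 66 Ir genes by these name patterns, so the binding proteins were covered far better than the receptors. Orco, the shared co-receptor of the odorant receptors, was measured on neither design. The Osi genes are taken in by the rule although they are not known as binding proteins or receptors, and are described apart.

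All flies were males of the strain dp cn bw cl, 6 to 7 days past eclosion, taken whole. Cold-shocked flies spent 2 h at 0 ± 0.5 °C and recovered for 30 min at 25 °C, while untreated flies from the same rearing were kept at 25 °C in the treatment vessel. Each of 3 two-colour cDNA arrays of the 12k design held a separate biological pair, with cold-shocked males in Cy5 and untreated males in Cy3. The dyes were exchanged on the 1 array of the 7k design, which was a pilot. The question was which transcripts differ after the cold shock.

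Odorant-binding proteins are small secreted proteins that carry odorants, tastants or other hydrophobic ligands through the fluid around chemosensory neurons. The receptors sit in the membrane of those neurons: Or proteins work as channels together with Orco, Gr proteins detect tastants and Ir proteins serve smell, taste, temperature and humidity. Several Obp genes are also expressed away from the nose and mouth, in the fat body, the nervous system or the male reproductive tract. Osi genes encode membrane or secreted proteins of insects that are best known from cells that make cuticle. In whole flies, the antennae, palps and taste bristles give a small part of the RNA, and fewer cells of a type cannot be told apart from less RNA per cell.

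Values are log ratios of the channels of an array, taken as log2 and averaged over the spots of a gene. A ratio below 0 on the 12k arrays is likely lower in cold-shocked flies, since dye, channel order and treatment all point that way, but the files used here do not state the direction. The 12k array medians were −0.13, 0.03 and 0.03 on arrays 1 to 3. Limma's test called 0 of 19325 features at the adjusted threshold of 0.05, and 924 had an unadjusted p under it. With 3 arrays an exact sign-flip test of 1 gene cannot give a two-sided p below 0.25, so tests of single genes rest on limma's shared estimate of the spread.

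None of the 39 genes passed limma's test over all features, where 0% of features passed (0 of 39 genes, adjusted p 0.853 or more). At an unadjusted p of 0.05, 3 of 39 genes were called, all with ratios below 0, against 3.49% of all named genes, or 2.58% in the lower and 0.913% in the higher direction. The 3 were Osi15, Osi14 and Osi7. The count was 1 without array 1, 7 without array 2 and 0 without array 3, where 2.97%, 4.61% and 2.24% of named genes were called, so it depends on which arrays enter. A single sign on all 3 arrays was found for 11 of 39 genes (28.2%), near the background of 29.4% of named genes. Of these, 8 were below 0 on every array, against a background of 16.9%, and 3 above, against 12.5%. A change of over 1.5-fold the same way on every array was seen in 0 of 39 genes, against 0.221% of named genes (0.147% lower and 0.0736% higher). The median of the 39 mean log2 ratios was −0.11 and that of all named genes −0.05. By array, the members had medians of −0.15, 0.04 and −0.14 and all named genes −0.12, 0.02 and 0.02.

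**Figure D1:**
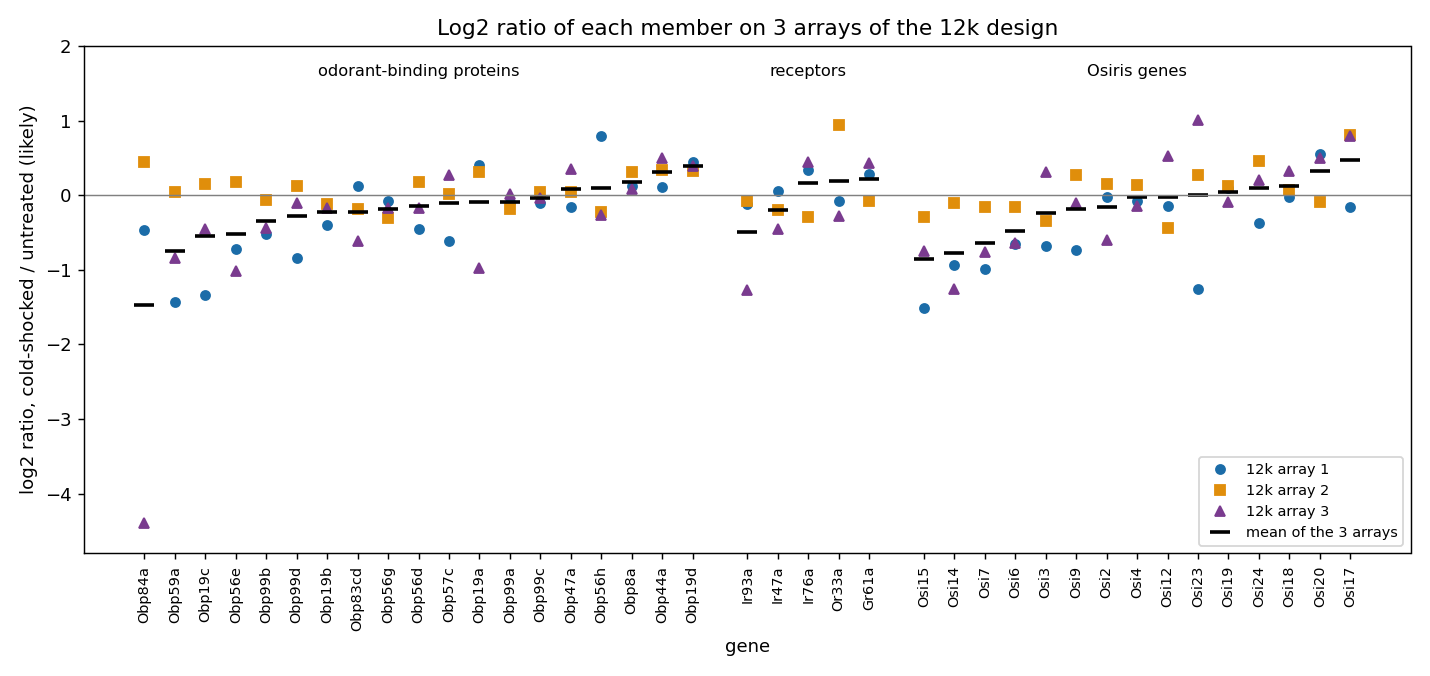
Log2 ratio of the 39 genes on each of 3 arrays of the 12k design (points) with the mean (bars), ordered by mean within binding proteins, receptors and Osiris genes. Most means lie within 0.5 of 0, and Obp84a stands lowest through its value of −4.39 on array 3 alone.

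Obp84a, a binding protein of the antenna, had the lowest mean of all members. Its log2 ratios were −0.47, 0.45 and −4.39 on arrays 1 to 3, a mean of −1.47 ± 2.57 (SD, n = 3), with a limma adjusted p of 0.853. The value on array 3 stood alone: without that array the mean was −0.01. The gene had a single printed pair of adjacent spots, which read −2.98 and −5.81 on array 3, −0.09 and −0.85 on array 1, and 0.62 and 0.28 on array 2. Both spots of array 3 were thus far below 0, but they differed from each other by 2.83, more than the other members with a single pair. The median of the 20 spots on either side was −0.05 on that array. Subtracting such local medians left a mean of −1.41.

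Obp56e, whose product is also a seminal fluid protein, gave log2 ratios of −0.72, 0.18 and −1.02 on arrays 1 to 3, with a mean of −0.52 ± 0.62 (SD, n = 3) and a limma adjusted p of 0.853. The mean was −0.42 without array 1, −0.87 without array 2 and −0.27 without array 3. The gene was printed as separate pairs at 2 places on the array. On array 3 the first pair read −1.54 and −3.47 and the second −0.06 and 1.00, so the places had opposite mean signs on the same array. On array 1 the first pair had a mean of −1.17, in surroundings with a median of −0.97, and the second pair −0.28, in surroundings at −0.01. The mean of Obp56e was −0.22 with local medians subtracted.

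At its first place the pair of Obp56e stood in a row, by spot number, with pairs of Obp59a and Obp19b. Obp59a encodes a binding protein needed for humidity sensing, and its log2 ratios were −1.43, 0.05 and −0.85, a mean of −0.74 ± 0.74 (SD, n = 3) and a limma unadjusted p of 0.0515. The pair in that row had means of −2.15, 0.29 and −1.38 on arrays 1 to 3, while the pair at another place had −0.71, −0.20 and −0.32. Both places were below 0 on arrays 1 and 3, but the first was lower by over 1 on each. With local medians subtracted Obp59a stood at −0.49, and leaving out 1 array gave means from −1.14 to −0.40.

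Obp19b had log2 ratios of −0.40, −0.12 and −0.18, a mean of −0.23 ± 0.15 (SD, n = 3). On array 3 its pair in that row had a mean of −1.12 and its other pair one of 0.77, so the single sign over the arrays hides places that disagreed. With local medians subtracted its mean was 0.05, on the other side of 0. In all, 14 of the 52 printed pairs of these genes had a pair of another member within 10 spots, so members do not sample independent places on the arrays.

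**Figure D2:**
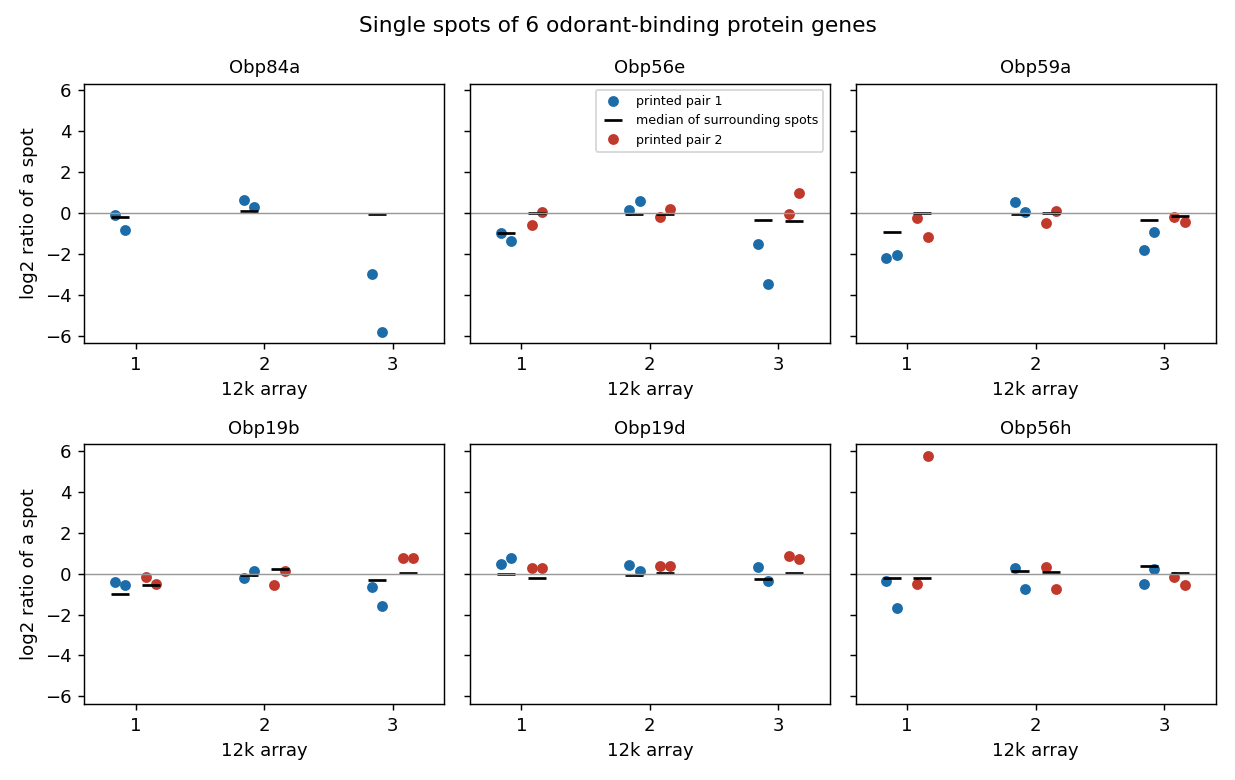
Log2 ratio of every spot (points, coloured by printed pair) of 6 binding protein genes on the 3 arrays of the 12k design, with the median of the 20 spots on either side of each pair (black bars). Obp84a has 1 pair, Obp56e and Obp19b read lower at the first place than at the second on array 3, and a single spot of Obp56h stands at 5.74 on array 1.

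Disagreement of over 2 in log2 between spots of the same gene was seen for 4 of 39 genes, against 4.83% of named genes. They were Obp84a, Obp56e, Obp19b and Obp56h, and without array 3 the count was 1, Obp56h. The measure is the range over all spots of a gene, which tends to be wider with more spots. More than 1 printed pair was held by 12 of the 39 members but by 687 of the 6793 named genes. The share of members is thus not directly comparable with that of named genes. Obp56h, which lies in the same gene cluster as Obp56e, gave log2 ratios of 0.80, −0.23 and −0.26 on arrays 1 to 3, with a mean of 0.10 ± 0.60 (SD, n = 3). Its value on array 1 was set by 1 spot at 5.74, without which array 1 stood at −0.85 and the mean at −0.45. Within printed pairs the members agreed about as well as other genes, with median differences of 0.365, 0.341 and 0.395 on arrays 1 to 3 against 0.321, 0.341 and 0.394 for all named pairs. Between places the 12 members with more than 1 pair differed by a median of 0.770, 0.385 and 0.535, against 0.440, 0.345 and 0.512 for the 687 named genes of that kind.

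The binding protein genes above 0 on all 3 arrays were Obp19d, Obp44a and Obp8a. Obp19d, an antennal binding protein, was the most even of all members, with log2 ratios of 0.45, 0.33 and 0.40 and a mean of 0.39 ± 0.06 (SD, n = 3), or 1.31-fold. Its 2 places gave 0.62 and 0.27 on array 1, 0.28 and 0.38 on array 2, and −0.02 and 0.81 on array 3. The 2 places on array 3 thus differed by more than the 3 arrays did. The limma adjusted p was 0.853, and with local medians subtracted the mean was 0.46. Obp44a, a binding protein abundant in the nervous system, stood at 0.10, 0.34 and 0.50, a mean of 0.31 ± 0.20 (SD, n = 3). The 2 spots of Obp44a read 0.33 and −0.12 on array 1, and 0.05 and 0.94 on array 3. Obp8a, a seminal fluid protein, stood at 0.12, 0.32 and 0.08, a mean of 0.17 ± 0.13 (SD, n = 3). Neither passed limma's test, with adjusted p of 0.862 and 0.905. Neither kept a single sign when local medians were subtracted: Obp44a stood at −0.14 on array 1, with a mean of 0.14, and Obp8a at −0.08 on array 3.

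Obp19d is the last gene of a run of 4 neighbouring Obp19 genes in the Release 6 order, all measured. The others were on the other side of 0: Obp19c at −1.34, 0.16 and −0.46, with a mean of −0.55 ± 0.75, Obp19b as above, and Obp19a at 0.40, 0.31 and −0.98, with a mean of −0.09 ± 0.77 (SD, n = 3). Obp19a was thus above 0 on 2 arrays and below on 1. The difference between Obp19d and its neighbours was not tested. Obp19c stood at −0.36 and Obp19a at 0.06 with local medians subtracted.

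In the Obp56 cluster, Obp56d, another antennal binding protein, stood at −0.45, 0.17 and −0.17, a mean of −0.15 ± 0.31, which became 0.08 with local medians subtracted. Obp56g, a seminal fluid protein, stood at −0.07, −0.31 and −0.17, a mean of −0.18 ± 0.12 (SD, n = 3). It was below 0 on every array, but 1 of its places was above 0 on arrays 1 and 3, at 0.07 and 0.10. With local medians subtracted Obp56g stood at 0.28 on array 1, with a mean of −0.14, so it did not keep a single sign.

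The 4 Obp99 genes lie close together, with 1 to 5 genes between one and the next, and belong to the binding proteins that lack 1 of the usual disulfide bonds. Obp99b was below 0 on all 3 arrays at −0.52, −0.07 and −0.44, a mean of −0.34 ± 0.24 (SD, n = 3). Obp99d stood at −0.84, 0.13 and −0.11, a mean of −0.28 ± 0.51, or −0.12 with local medians subtracted. Obp99a and Obp99c were close to 0 on each array, with means of −0.09 ± 0.10 and −0.04 ± 0.08 (SD, n = 3). For Obp99a the limma interval at 95% confidence, unadjusted, was −0.61 to 0.44 and for Obp99c −0.55 to 0.48. Changes within these ranges could thus not be excluded with these arrays. Over the 39 genes the distance from the mean to either end of that interval had a median of 0.593.

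The remaining binding proteins were Obp83cd, which holds 2 binding domains in 1 protein, at 0.13, −0.18 and −0.61 (mean −0.22 ± 0.37), Obp47a at −0.16, 0.04 and 0.36 (mean 0.08 ± 0.26), and Obp57c of the taste organs at −0.62, 0.02 and 0.27 (mean −0.11 ± 0.46; SD, n = 3). Each had both signs over the arrays. By expression site, 5 of the 6 measured genes on a list of 10 antennal binding proteins had means below 0, with a median of −0.14, and 2 of 3 measured genes on a list of 7 seminal fluid ones, with a median of −0.18. Of all named genes 57% had means below 0. The list medians were −0.04 and −0.14 with local medians subtracted. The antennal list includes lush, the binding protein for the male pheromone, which the name rule leaves out and which stood at −0.96, 0.36 and 0.23.

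Receptor genes were few and had no even pattern. Ir93a, a co-receptor needed for sensing of cooling and humidity, was below 0 on all arrays at −0.11, −0.08 and −1.27, a mean of −0.49 ± 0.68 (SD, n = 3). On array 3 its spots read −0.29 and −2.25, so the mean rests mostly on 1 spot. Without that array it was −0.10. Gr61a, a receptor of the sugar group, stood at 0.28, −0.07 and 0.43, a mean of 0.21 ± 0.26. Its positive values also rest on 1 spot each, with spots at −0.01 and 0.57 on array 1 and −0.01 and 0.88 on array 3. Ir76a, an antennal ionotropic receptor, had a mean of 0.17 ± 0.40, Or33a one of 0.19 ± 0.66 and Ir47a one of −0.20 ± 0.26 (SD, n = 3). None passed limma's test, with adjusted p from 0.853 to 0.920.

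The Osi genes held the 3 members with the smallest unadjusted p. Osi15 had log2 ratios of −1.52, −0.30 and −0.75, a mean of −0.85 ± 0.62 (SD, n = 3), or 1.81-fold lower, with a limma unadjusted p of 0.0214. Osi14 stood at −0.94, −0.11 and −1.26, a mean of −0.77 ± 0.59 and an unadjusted p of 0.0308. Osi7 stood at −0.99, −0.17 and −0.77, a mean of −0.64 ± 0.43 and an unadjusted p of 0.0402. All 3 were well below 0 on arrays 1 and 3 and nearer to 0 on array 2, and their limma adjusted p was 0.853 each. Their spots agreed within 0.49 on every array. With local medians subtracted the means were −0.65, −0.65 and −0.59. Leaving out 1 array gave means from −1.13 to −0.52 for Osi15, from −1.10 to −0.52 for Osi14 and from −0.88 to −0.47 for Osi7.

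Osi6 was also below 0 on all arrays at −0.66, −0.15 and −0.64, a mean of −0.48 ± 0.29 (SD, n = 3). Its 2 spots differed by 1.23 on array 1 and 1.31 on array 3, and with local medians subtracted array 1 stood at 0.04. In the Release 6 order Osi6 and Osi7 are next to each other, as are Osi14 and Osi15, in a run that holds 14 of the 15 measured Osi genes. The other 10 genes of the run ranged from −0.73 to 0.55 on array 1, from −0.44 to 0.81 on array 2 and from −0.60 to 0.79 on array 3. These 4 genes were picked out for their values, so their place in the run has no test. Osi17 stood highest of all members, at −0.17, 0.81 and 0.79, a mean of 0.48 ± 0.56, and Osi20 followed at 0.55, −0.09 and 0.50, a mean of 0.32 ± 0.36 (SD, n = 3). Osi23, outside the run, ranged from −1.26 on array 1 to 1.01 on array 3. The median of the 15 Osi means was −0.03, against −0.05 for all named genes. By array the Osi medians were −0.37, 0.07 and −0.10, against −0.12, 0.02 and 0.02 for all named genes. On all 3 arrays, 4 of 15 Osi genes were below 0, against 16.9% of named genes, and 0 above, against 12.5%.

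**Figure D3:**
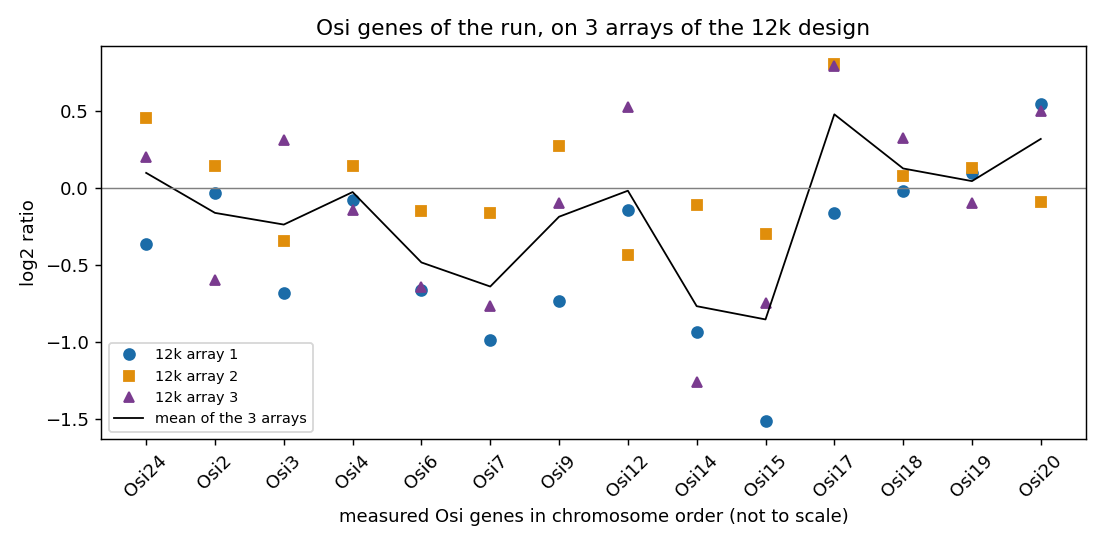
Log2 ratio of the 14 measured Osi genes of the run on each of 3 arrays of the 12k design (points) and their mean (line), in chromosome order and not to scale. Osi6, Osi7, Osi14 and Osi15 lie below 0 on every array, and Osi17 to Osi20 have means above 0.

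Most of the members' low values came from arrays 1 and 3. On array 1, 12 of 39 genes were past a fold of 1.5 below 0, against 18% of named genes, and 1 was past it above, against 3.17%. On array 3 the counts were 11 below, against 12.5%, and 2 above, against 10.5%. On array 2 there were 0 below, against 3.69%, and 2 above, against 5.02%. Across the 39 genes, which share arrays and printing places, arrays 1 and 3 had a Pearson's r of 0.21, arrays 1 and 2 one of 0.03, and arrays 2 and 3 one of −0.05. Obp84a alone set the last sign, since without it the same values were 0.28, 0.04 and 0.18. For all named genes they were 0.10, 0.09 and 0.08. The SD over arrays had a median of 0.398 for the members and 0.338 for all named genes, and the mean was larger than its SD for 10 of the 39 genes (25.6%), near the 25% of named genes.

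**Figure D4:**
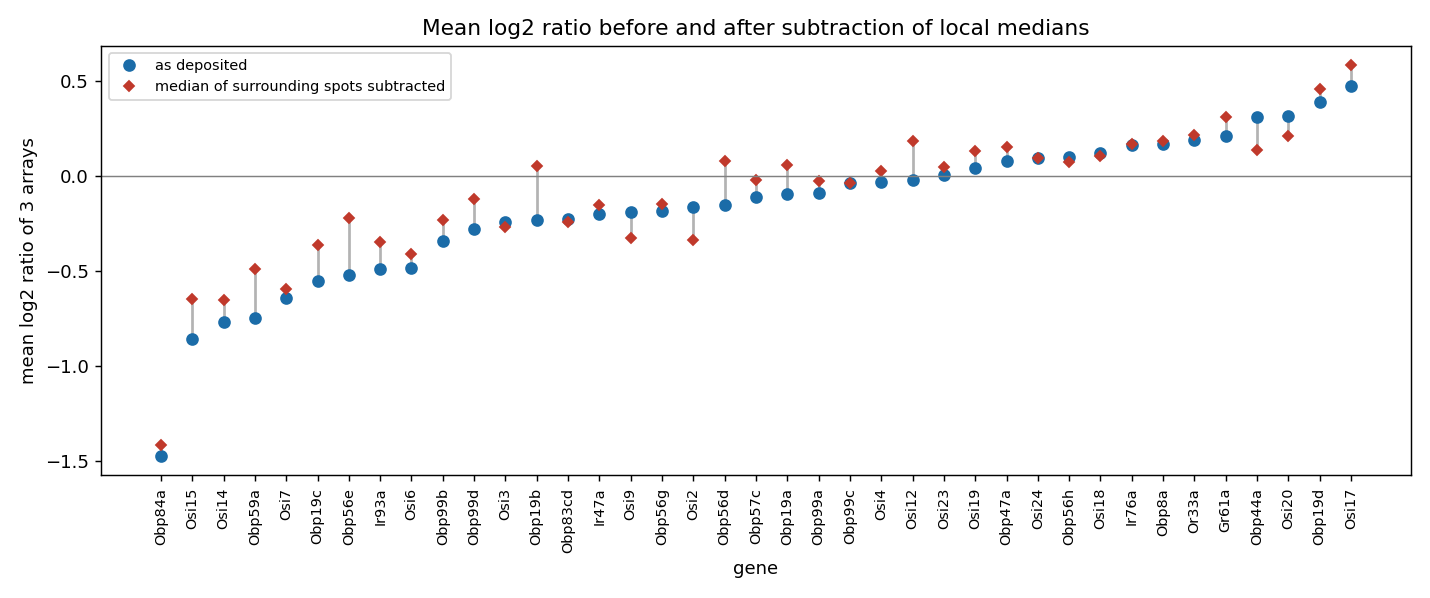
Mean log2 ratio of the 39 genes over 3 arrays of the 12k design, as deposited (circles) and after subtraction of the median of the 20 spots on either side of each printed pair (diamonds). Obp59a and Obp56e move towards 0, Obp19b and Obp56d cross it, and Osi7 stays near −0.6.

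After subtraction of local medians the median of the members' means was −0.02, as was that of all named genes. The number of genes with 1 sign on all 3 arrays was then 12, against 30.6% of named genes, with 7 below 0 and 5 above, against 15.9% and 14.7%.

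Other chemosensory genes, from a list of 38, were measured for 6 genes, and 0 passed over all features. The transcription factor gene pdm3, which acts in olfactory neurons, stood at −0.64, −0.40 and −0.56, a mean of −0.53 ± 0.12 (SD, n = 3), with a limma unadjusted p of 0.0478 and an adjusted p of 0.853. It was the one gene of the 6 with a single sign over the arrays. Phk-3, which encodes a protein of the chemosensory protein family, had a mean of 0.37 ± 0.75, Jhedup, an esterase gene, one of −0.13 ± 0.50, CheA75a one of −0.02 ± 0.13 and amos, needed for olfactory sensilla, one of 0.05 ± 0.15 (SD, n = 3).

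Markers of other tissues are given because whole flies were used, and without channel intensities only their ratios can be shown. Of 14 photoreceptor markers, which stand for the head, 5 were measured, with means from −0.36 to 0.23. Of 21 accessory gland markers 4 were measured, with means from −0.04 to 0.17. Female markers had means below 0 for 6 of 6 measured genes, 5 of them on all arrays, with list medians of −1.92, −0.54 and −0.43 on arrays 1 to 3. The female list was thus lowest on array 1. Members past a fold of 1.5 below 0 numbered 12, 0 and 11 of 39 on arrays 1 to 3. The shares of named genes were 18%, 3.69% and 12.5%. Any part of the female markers in the members' values was not tested.

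Pilot values are given after subtraction of 0.40, the median of that array, and with the sign as deposited. The direction of that ratio is not settled, every value would turn if it ran the other way, and there was no replicate. Of 23 members 18 were above the array median, against 49.4% of named genes, and 9 were past a fold of 1.5 above it, against 20.2%. None was past that fold below it, as 14.9% of named genes were. The median of the 23 genes was 0.38 and that of all named genes −0.01. After subtraction of local medians on the pilot, 13 of 23 were above 0, against 48.1%, 3 were past the fold above, against 13%, and 4 below, against 14.8%, with a member median of 0.11.

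The highest pilot values were those of Obp19a at 1.14, Obp44a at 1.02, Osi14 at 1.00, Obp99d at 0.94 and Obp8a at 0.92. With local medians subtracted these were 0.45, 0.09, 1.17, 0.53 and 0.11, so Osi14 alone of the 5 kept its size. Next came Obp56h at 0.84, Obp59a at 0.77, Obp47a at 0.75, Obp56d at 0.61, Obp28a, an antennal binding protein gene, at 0.46 and Obp83cd at 0.43. Obp84a stood at 0.38 with spots at −0.09 and 0.85, and Obp56e at 0.35 with spots at 0.43 and 0.28. The large negative value of Obp84a on 12k array 3 thus had no counterpart of like size here in either direction. The lowest were Obp99c at −0.57, Obp56g at −0.40, Obp19d at −0.32, Obp57c at −0.27 and Obp99a at −0.23. Obp28a and Gr97a, a gustatory receptor gene at 0.28, were measured on the pilot and not on the 12k design.

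Of the 21 genes on both designs, 8 had a single sign on the 12k arrays. Of these, 5 (62.5%) had the other sign on the pilot relative to its array median, near the 57.3% of such named genes. With the pilot's sign turned the count was 3, against 42.7%, and with local medians subtracted on the pilot 4, against 54.4%. Over all 21, Pearson's r between the 12k mean and the pilot was −0.05 with the sign as deposited and 0.05 with it turned, and −0.11 with local medians subtracted on both. Genes are not independent replicates, and these values are a description. For the 1823 named genes on both designs r was −0.11 as deposited.

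**Figure D5:**
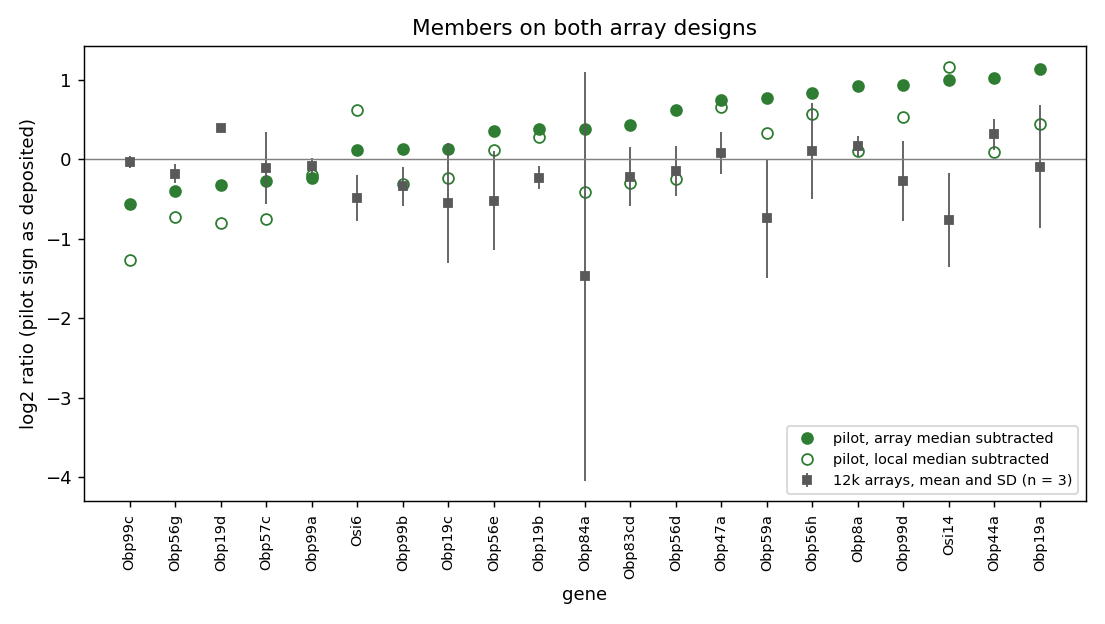
Log2 ratio of the 21 genes on both designs: the pilot relative to its array median (filled circles) or to local medians (open circles), with the sign as deposited, and the mean with SD of 3 arrays of the 12k design (squares). The order of the pilot values is not seen in the 12k means.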

How the data were processed

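The deposited values are log2 ratios, 1 per spot, which the authors derived from normalized data, per the labels. How they were normalized and the base of the logarithm are not given in the labels or files used here. Base 2 was taken because values reached −14.57, beyond the natural log of a 16-bit range, 11.09. Intensities of the channels were not used, so signal over background is unknown for every spot.

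The 12k design holds 27648 spots, 15116 with a single gene symbol, 102 with several and 12430 without. The 7k design holds 16896 spots, 5666 with a single symbol, 152 with several and 11078 without. Symbols came from the platform annotation, updated through RefSeq gene identifiers, of which 14894 matched on the 12k design and 222 did not. All 5666 matched on the 7k design. Spots of a gene were averaged within an array, and other spots were single features. The 19325 features were tested against 0 with limma 3.58.1 in R 4.3.3 (lmFit and eBayes, two-sided, Benjamini-Hochberg adjustment, threshold 0.05). The number of arrays limits the precision. The 12k arrays share 1 dye orientation, so dye and treatment cannot be told apart. The fit was also run on simulated data with known changes and independent noise, without effects of array, dye or place. That run was a check of the code, and power for changes of the sizes described here was not assessed. Printed pairs, places and neighbours were read from the order of spot numbers, and grid coordinates were not used. Whether pairs of a gene at different places hold the same cDNA was not checked. Local medians were taken over 20 spots on either side of a printed pair. Genes named are Obp84a, Obp56e, those with 1 sign on all arrays, the 5 highest and 5 lowest means, those with spots over 2 apart and those on both designs, 27 in all; others are named after their values were seen. Members, lists and settings were chosen with earlier results of these data known. Sequences were not used here.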

Additional observations from a re-analysis of the deposited data

Results flagged for a closer look

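Of the 21 genes on both designs, 8 had 1 sign on all 3 arrays of the 12k design. Of these, 5 had the other sign on the pilot relative to its array median (62.5%). That share is near the 57.3% of the 572 named genes of that kind. Osi14, with a 12k mean of −0.77, stood at 1.00 above the pilot's median, and Osi6, at −0.48, stood at 0.12. Obp19b stood at −0.23 and 0.38, Obp99b at −0.34 and 0.13, and Obp19d at 0.39 and −0.32. The other 3 had the same sign on both: Obp44a at 0.31 and 1.02, Obp8a at 0.17 and 0.92, and Obp56g at −0.18 and −0.40. With the pilot's sign turned, these 3 would be the opposite ones, against 42.7% of named genes. After subtraction of local medians on the pilot 4 of 8 were opposite, against 54.4% of named genes, and Obp99b, at −0.31, then shared its 12k sign. The difference between the designs was not tested, and the pilot is 1 array with the dyes exchanged.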

How the results depend on the processing

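The counts of features and of members past limma's adjusted p, both 0, stayed at 0 in the 8 other settings run, where the smallest adjusted p over all features ranged from 0.184 to 0.954. The 924 features at an unadjusted p of 0.05 became 387 for named genes only, where fewer were tested, and 597 to 1208 without one replicate. Of members, 3 were under that p, and 0 to 7 without one replicate. The 11 genes with a single sign over the arrays became 0 with a fold of 1.5 required and 16 to 25 without one replicate, where 2 arrays had to share a sign. The median of the members' means, −0.11, ranged from −0.18 to −0.0024 without one replicate. The pilot median of 0.38 became −0.38 with the sign turned, by construction, 0.78 as deposited and 0.11 with local medians subtracted. The 4 genes with spots over 2 apart became 1 to 4 without one replicate. Of 27 named genes, 3 changed sign with local medians subtracted (Obp19a, Obp19b and Obp56d), 1 with the median of spots (Obp56h), 0 with array medians subtracted and 7 without one replicate. Local medians on the pilot and Obp56h without its highest spot were chosen after seeing the data. Without channel intensities, signal over background could not be used to weigh any value. Cold-shocked and untreated flies are already paired within each array's ratio. Limma's test of these ratios against 0 is thus a paired one. No further pairing was made, since each 12k array held a separate biological pair and the pilot was 1 array of another design.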

Other observations

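Spots that carry the symbols of several genes were left out of the comparisons. On the 12k design, 2 spots shared by Obp56c and Obp56b had log2 ratios of −1.20, −0.52 and −0.32 on arrays 1 to 3, below 0 on each, and stood at 1.01 above the median on the pilot. Another 4 spots shared by Obp57e and CG30148 stood at −2.06, −0.18 and 0.14, and at 0.92 on the pilot. The 2 spots shared by Gr36b and Gr36c stood at −0.76, 0.48 and 0.07, and at 0.56 on the pilot. The genes in each set cannot be told apart on these arrays.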
